A study of Mus musculus with 18 samples.

Results

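Transitional interstitial macrophages (tnsIMs; labelled trIM) were compared with both populations sorted beside them from the inflamed mouse lung, the monocyte-derived macrophages (moMs) and the mature interstitial macrophages (matIMs). The question was which transcripts stood highest or lowest in tnsIMs, rather than at a level between those of moMs and matIMs. A gene was counted when its tnsIM mean differed from the average of the moM and matIM means at an adjusted p under 0.05, by edgeR's quasi-likelihood test with genotype as a covariate and Benjamini-Hochberg adjustment over all tested genes. In addition, its mean in tnsIMs had to lie above both other means, or below both, in each of the 2 genotypes. Of 15811 genes tested, 3430 met the rule, of which 2089 were highest and 1341 were lowest in tnsIMs. The deposited table held 21254 genes, and 5443 with too few counts were not tested.

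The data were bulk RNA-seq counts of 18 libraries, 3 biological replicates for each combination of 3 populations and 2 genotypes, so that each population had 6 libraries. Ezr-KOm mice carried floxed alleles of the ezrin gene (Ez fl/fl) together with the Cx3cr1 tm1.1(cre)Jung/J allele, in which Cre recombinase is made from the Cx3cr1 locus. WT mice carried the same Cre allele without the floxed gene. Both were on a C57BL/6 background and were 3 to 5 months old by the study's methods, and all had received 12.5 mg of Pseudomonas aeruginosa LPS in 5 ml by nebulization over 15 min. Whole perfused lungs were dissociated 24 h later, and the gates were CD45+CD11b+MHC-II-Ly6C+ for moMs, CD45+CD11b+MHC-II+Ly6C+ for tnsIMs and CD45+CD11b+MHC-II+Ly6C- for matIMs. Cre from Cx3cr1 acts in monocytes and macrophages in general, so the deletion is not limited to 1 of the 3 populations. Untreated mice and populations outside these gates were not analysed here.

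Blood monocytes that enter an inflamed lung carry Ly6C and little MHC class II, the surface complex that presents peptides to helper T cells. As they settle in the interstitium they gain MHC class II and lose Ly6C, and tnsIMs are the cells that carry both. Macrophages sorted from dissociated lung lie next to surfactant-secreting alveolar type 2 (AT2) cells, thin alveolar type 1 (AT1) cells, capillary endothelium and fibroblasts, whose transcripts are not part of a macrophage programme. For that reason the genes were grouped into 14 lists of markers of other lung cells and 15 lists of macrophage functions. In bulk libraries, fewer cells of a type and less RNA per cell cannot be told apart.

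Levels are given as CPM, the counts of a gene relative to the library total scaled by TMM, a normalization that assumes most genes do not change. Where 3 values are given for a population, they are the lowest, the median and the highest of its 6 libraries. The gate genes followed the labels. Ly6c2, which encodes Ly6C, was at 109.9, 236 and 413 CPM in tnsIMs, 400.5, 478 and 582 CPM in moMs and 28.7, 44.4 and 76.5 CPM in matIMs. H2-Ab1, which encodes a chain of MHC class II, was at 7929.8, 11268 and 18399.8 CPM in tnsIMs, 984, 1348 and 1775 CPM in moMs and 12522, 14689 and 17064 CPM in matIMs. The tnsIM libraries were thus between the others for Ly6c2, with the highest of them inside the moM range, and overlapped matIMs for H2-Ab1. Ezr, the gene targeted in Ezr-KOm mice, was at 679, 515 and 565 CPM in the 3 WT tnsIM libraries and at 234, 126 and 213 CPM in the 3 Ezr-KOm libraries. In moMs it was at 503, 593 and 497 CPM in WT and at 282, 160.0 and 252 CPM in Ezr-KOm, and in matIMs at 741, 632 and 611 CPM and at 167, 93.8 and 144 CPM. Ezr transcript was lower in every Ezr-KOm library than in every WT library of the same population, and in none was it absent. Library totals ranged from 16512783 to 48460995 counts, with a median of 24086623, and the deepest library was of tnsIMs.

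More genes were higher than lower in tnsIMs, and the genes that were higher differed by more. In the contrast against the average of the other populations, 2440 genes were higher (15.4% of those tested) and 1807 were lower (11.4%). With upper-quartile normalization in place of TMM the split was 2920 higher and 1293 lower. The filter keeps genes counted in the libraries of 1 group only, so genes rare outside tnsIMs can enter as rises. With at least 10 counts in every library, 1584 genes were higher and 1345 lower. Under that filter 668 were highest and 345 lowest against each population. The 2089 genes that were highest in both genotypes were 13.2% of all genes tested, and the 1341 that were lowest were 8.48%. When tnsIMs were also tested against each population on its own, at an adjusted p under 0.05 for both, 1322 genes remained highest (8.36%) and 453 remained lowest (2.87%). Of all genes, 768 had all 6 tnsIM libraries above the other 12 (4.86%) and 106 had all 6 below (0.67%). The median log2 difference over all tested genes was -0.02. The genes nearest the threshold were Igfbp4 just inside the highest set, at a largest adjusted p of 0.0498, and Nol11 just outside it, at 0.0502. Yipf4 and Ecpas had the corresponding places among the lowest, at 0.04996 and 0.0502.

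The 1322 genes highest against each population took between 4.81% and 5.61% of all counts in the tnsIM libraries. In moMs they took between 2.44% and 3.19%, and in matIMs between 2.47% and 3.03%. The 453 genes lowest against each population took between 2.59% and 3.37% of counts in tnsIMs, between 3.84% and 4.48% in moMs and between 4.001% and 4.78% in matIMs. The ranges of tnsIMs and of the other populations did not overlap for either set, as the choice of the genes requires.

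The highest genes were split by the lists. Of the 2089, 86 stood on a list of another lung cell, 52 on a macrophage list and 1951 on none. Of the 1322 that were highest against each population, these numbers were 68, 24 and 1230. The sizes of the differences varied between these groups. Over whichever other population was nearer, the median fold was 3.82 for the 68 genes of other lung cells, 1.55 for the 24 macrophage-list genes and 3.32 for the 1230 unlisted genes. Genes more than 3-fold above both other populations were 49 of the 68, 4 of the 24 and 726 of the 1230. The lists hold 193 tested genes of other lung cells and 347 of macrophages.

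**Figure D1:**
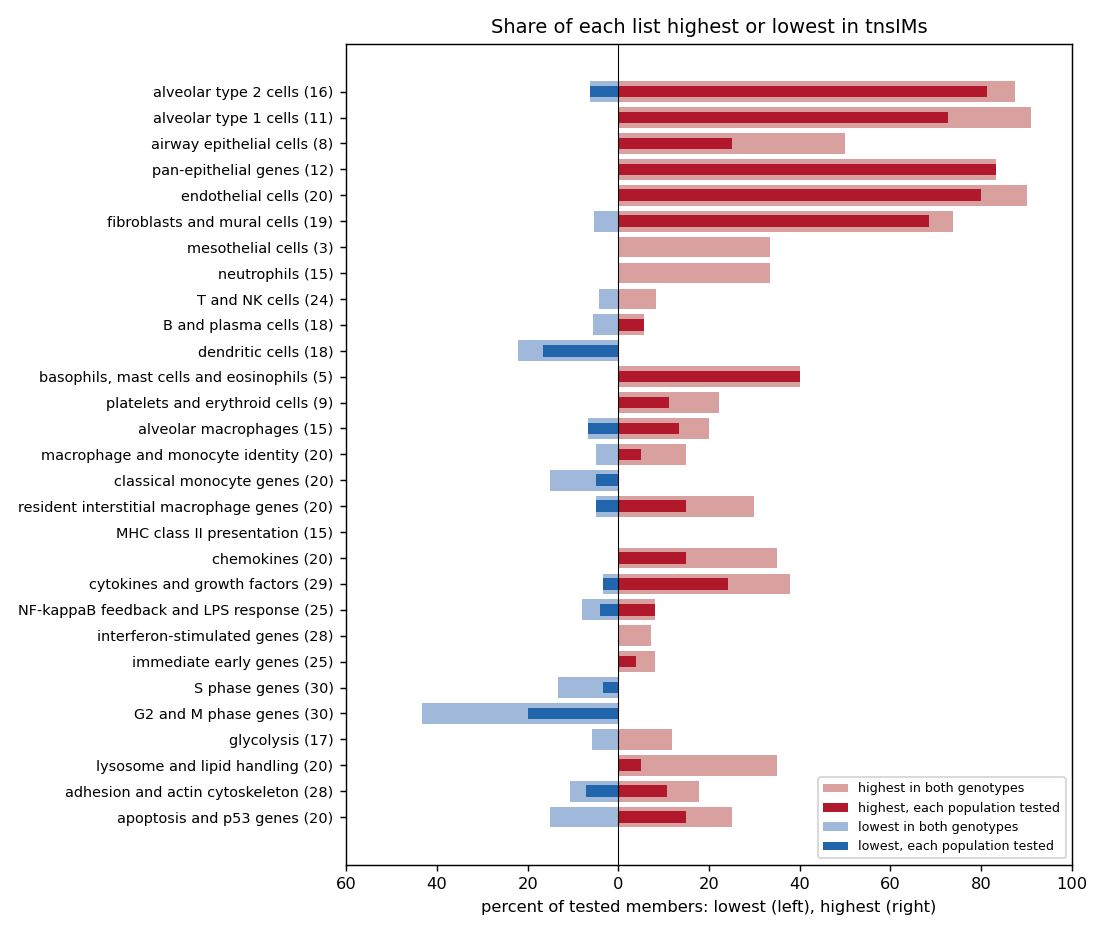
Percent of the tested members of each list (number tested in brackets) that were highest (red, right) or lowest (blue, left) in tnsIMs in both genotypes, with the narrow dark bars showing those that passed the test against each population. The AT2, AT1, pan-epithelial, endothelial and fibroblast lists reach furthest to the right, and the G2 and M phase list reaches furthest to the left, with 13 of 30 members lowest.

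Of all lists, that of AT2 cells had the largest median difference. AT2 cells line the alveolus and secrete surfactant, the lipid and protein film that lowers surface tension. All 16 genes of the list were tested, 14 were highest in tnsIMs in both genotypes, 13 of them against each population, and the median log2 difference was 4.30. Sftpc (chr14:70758389-70761521, GRCm39), the gene of surfactant protein C, was at 572, 1179.9 and 1876 CPM in tnsIMs, 7.404, 15.8 and 43.4 CPM in moMs and 47.9, 110.4 and 122 CPM in matIMs. The 6 tnsIM libraries lay above all 12 others, 58.04-fold above moMs and 11.9-fold above matIMs (log2 difference from their average 4.71 ± 0.29 (SE), adjusted p = 1.19e-10). Sftpa1, which encodes surfactant protein A, was at 838, 1478 and 1986 CPM in tnsIMs, 8.099, 21.9 and 58.6 CPM in moMs and 82.4, 153 and 184 CPM in matIMs. Again no library overlapped, and the folds were 52.8 over moMs and 10.2 over matIMs (adjusted p = 1.32e-10).

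The promoter window of Sftpa1 is shown because NKX2-1, the lung epithelial factor of the NKX2 family, is known to act at surfactant promoters. It is the 250 bases before the first listed RefSeq start (chr14:41131538-41131787, plus strand, in GRCm38.p6, an earlier build than the GRCm39 of the counts), written 5′ to 3′ on the strand of the gene. Capitals mark TNAAGTG, core letters of NKX2 sites with N for any base, searched as exact letters on both strands.
Sftpa1: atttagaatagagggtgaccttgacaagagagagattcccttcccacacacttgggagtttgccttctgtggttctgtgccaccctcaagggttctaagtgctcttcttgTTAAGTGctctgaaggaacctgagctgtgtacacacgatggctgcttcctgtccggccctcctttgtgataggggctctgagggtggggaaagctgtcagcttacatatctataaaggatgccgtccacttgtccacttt
Of 15811 tested genes, 11144 had a window in the table, and 7.54% of these held TNAAGTG. It stood in 4 of 12 AT2 windows (33.3%), those of Sftpa1, Cxcl15, Hc and Lyz1. The windows of Sftpb, Lamp3, Slc34a2 and Chil1 were among those without it. It also stood in 3 of 6 airway windows, in 27.3% of 11 fibroblast windows and 14.8% of 27 G2 and M phase windows, and in 7.17% of 935 windows of the genes highest against each population.

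Other AT2 genes had folds of the same order. Sftpb and Sftpd, of surfactant proteins B and D, were 55.9-fold and 53.8-fold above moMs, and 10.7-fold and 10.04-fold above matIMs. Lamp3, a lamellar body membrane gene, was at 60.9, 72.5 and 121 CPM in tnsIMs, 0.771, 1.76 and 2.52 CPM in moMs and 3.73, 8.8995 and 9.91 CPM in matIMs (4.45 ± 0.19 (SE), adjusted p = 2.22e-12). Slc34a2, the phosphate transporter of AT2 cells, was 53.9-fold above moMs and 8.95-fold above matIMs. Chil1, a chitinase-like secreted protein, was at 556, 828 and 1078 CPM in tnsIMs, 11.3, 17.7 and 32.8 CPM in moMs and 74.1, 108 and 124 CPM in matIMs. In each of these genes the tnsIM libraries lay above all others and matIMs lay above moMs. Of the 13 AT2 genes highest against each population, 12 were higher in matIMs than in moMs.

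Not every gene of the AT2 list behaved in this way. Napsa, which encodes the aspartic protease napsin A, was lowest in tnsIMs, with means of 271 CPM against 417 in moMs and 429.5 in matIMs (log2 difference -0.64 ± 0.08 (SE), adjusted p = 4.13e-06). Abca3, the lipid transporter of lamellar bodies, did not pass the test, at 42.7, 54.5 and 32.5 CPM (adjusted p = 0.922). Etv5 and Lyz1 were highest against both, but by 1.47-fold and 2.31-fold over moMs. Summed over the list, AT2 transcripts were at 3089, 4847 and 6205 CPM in tnsIMs, at 626, 752 and 821 CPM in moMs and at 902, 1067 and 1183 CPM in matIMs. Napsa alone, with means of 417 CPM in moMs and 429.5 CPM in matIMs, made up a large part of the sums of those 2 populations.

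**Figure D2:**
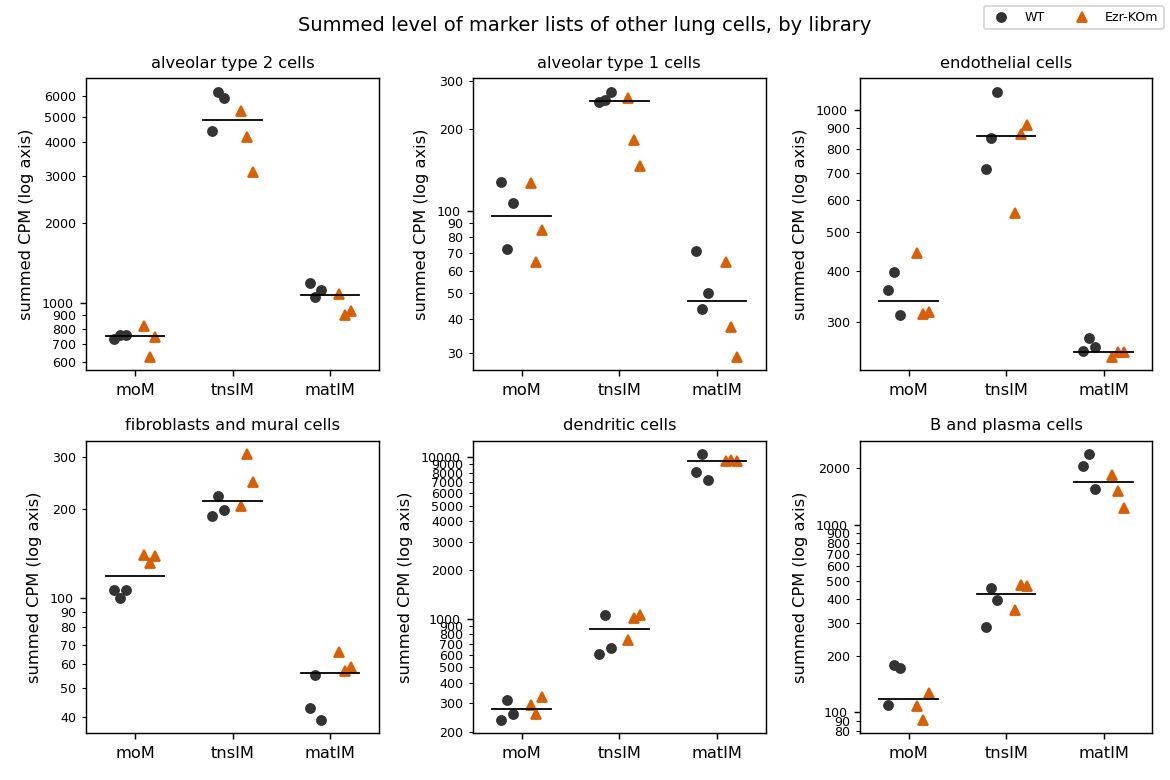
Summed CPM of 6 marker lists of other lung cells (log axis) in each library, by population, with circles for WT, triangles for Ezr-KOm and a line at the median of the 6 libraries. The 4 structural cell lists are highest in tnsIMs in all 6 libraries, whereas the dendritic cell and B cell lists are highest in matIMs.

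The 12 genes with the largest rise among those with no overlap and a tnsIM mean of at least 10 CPM had fitted log2 differences between 4.45 and 4.75. They were Chia1, Sftpc, Itih4, Mlc1, Sftpb, Slc26a4, Sftpd, Sftpa1, Cldn3, Wfdc2, Slc34a2 and Lamp3, and all but 4 of them stood on an epithelial list. The 4 without a list were Chia1, an acidic chitinase, Itih4, an inter-alpha-trypsin inhibitor chain, Slc26a4, an anion exchanger, and Mlc1, a membrane protein. Chia1 was at 27.4, 41.8 and 48.9 CPM in tnsIMs, 0.0771, 0.459 and 1.13 CPM in moMs and 2.099, 4.18 and 5.02 CPM in matIMs, or 71.2-fold above moMs and 10.1-fold above matIMs. Slc26a4 was at 20.5, 27.1 and 42.3 CPM in tnsIMs, 0, 0.341 and 0.787 CPM in moMs and 1.75, 3.11 and 5.14 CPM in matIMs. Itih4 was at 19.8, 61.3 and 109.8 CPM in tnsIMs, 0.116, 0.965 and 2.35 CPM in moMs and 1.48, 5.398 and 9.05 CPM in matIMs. Mlc1 was at 8.82, 11.4 and 16.6 CPM in tnsIMs, 0.0386, 0.121 and 0.609 CPM in moMs and 0.641, 1.27 and 1.68 CPM in matIMs, and its WT moM libraries had 3 or fewer counts each, so no fold over moMs is given for it. For all 4 genes the moM median was lowest and the matIM median lay between those of moMs and tnsIMs, as for the surfactant genes.

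Most genes of the pan-epithelial and AT1 lists were also highest in tnsIMs. Of 12 tested pan-epithelial genes, 10 were highest, all 10 against each population, with a median log2 difference of 3.37 over the list. Krt8, a keratin of simple epithelia, was at 8.22, 15.7 and 18.5 CPM in tnsIMs, 0.5399, 0.771 and 2.09 CPM in moMs and 1.01, 2.01 and 2.62 CPM in matIMs (3.30 ± 0.24 (SE), adjusted p = 1.11e-09). Cldn3, a tight junction claudin, was 50.9-fold above moMs and 9.99-fold above matIMs. Epcam, an epithelial adhesion molecule, was an exception, being higher in matIMs (9.77 to 14.7 CPM) than in tnsIMs (6.72 to 10.2 CPM). Cdh1, the gene of E-cadherin, also had its highest mean in matIMs, at 205 CPM against 138 in tnsIMs and 86.5 in moMs, and did not pass the test (adjusted p = 0.888). The summed list overlapped between tnsIMs, at 211, 245 and 314 CPM, and matIMs, at 194, 223 and 288 CPM, with moMs at 70.5, 80.3 and 154 CPM. Cdh1 made up most of this sum in each population. Over the 10 genes that were highest, the median level in matIMs was 12.5% of that in tnsIMs. The number of genes highest fell to 3 when each library had to hold 10 counts or more, which removes genes rare in any population.

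AT1 cells form the thin gas-exchange surface of the alveolus. All 11 AT1 genes were tested, and 10 were highest in tnsIMs, 8 of them against each population. Ager, a receptor made in large amount by AT1 cells, was at 54.3, 117 and 147 CPM in tnsIMs, 3.93, 10.9 and 26.6 CPM in moMs and 6.26, 10.4 and 19.9 CPM in matIMs (3.00 ± 0.31 (SE), adjusted p = 2.39e-07). Aqp5, a water channel, was 7.22-fold above moMs and 8.45-fold above matIMs. Clic5, which encodes a chloride channel protein, was at 13.6 to 44.9 CPM in tnsIMs, and its lowest library was at the level of the highest moM library (6.36 to 13.6 CPM). The AT1 folds over moMs ran from 2.46 to 7.62, and those over matIMs from 3.29 to 8.45. All 8 genes were higher in moMs than in matIMs, the reverse of the order of AT2 genes. Summed over the list, AT1 transcripts were at 147, 253 and 274 CPM in tnsIMs, 65.02, 96.1 and 128 CPM in moMs and 29.1, 46.8 and 71.4 CPM in matIMs. With at least 10 counts per library, 5 genes were highest. Hopx was the gene of the list that did not pass (adjusted p = 0.317).

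Airway genes were few. Of 14 listed, 8 were tested and 4 were highest in tnsIMs, 2 of them against each population, and 2 were highest without Ezr-KOm matIM replicate 2 and 1 with at least 10 counts per library. Sec14l3, a ciliated cell gene, was at 10.5, 18.1 and 23.5 CPM in tnsIMs, 3.16, 5.47 and 11.5 CPM in moMs and 1.92, 3.502 and 8.86 CPM in matIMs (1.72 ± 0.28 (SE), adjusted p = 7.54e-05). Scgb1a1, the secretoglobin of club cells, did not pass the test, at 3.43 to 13.99 CPM in tnsIMs, 1.66 to 10.005 in moMs and 2.06 to 30.1 in matIMs (adjusted p = 0.734).

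Endothelial genes formed the next group. Of 20 tested, 18 were highest in tnsIMs, 16 of them against each population, with a median log2 difference of 2.39. Cldn5 (chr16:18595597-18597012), the claudin of endothelial tight junctions, was at 30.96, 57.97 and 64.7 CPM in tnsIMs, 9.34, 11.7 and 18.9 CPM in moMs and 3.68, 4.83 and 5.38 CPM in matIMs. Its 6 tnsIM libraries did not overlap the others, and the folds were 3.83 over moMs and 11.3 over matIMs (2.72 ± 0.16 (SE), adjusted p = 1.01e-10). Esam, an endothelial adhesion molecule, was 3.81-fold and 9.95-fold above moMs and matIMs, Ramp2, a receptor partner for adrenomedullin, 3.54-fold and 9.62-fold, and Tie1, a receptor kinase, 3.51-fold and 12.4-fold. Over the 16 genes the folds over moMs ran from 2.11 to 4.75 and those over matIMs from 1.74 to 13.5. In 15 of the 16, moMs were higher than matIMs. Car4, an enzyme of lung capillaries, and Ednrb, the endothelin B receptor, did not pass (adjusted p = 0.104 and 0.632). The list summed to 556, 860 and 1107 CPM in tnsIMs, 313, 339 and 445 CPM in moMs and 246, 253 and 275 CPM in matIMs.

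Genes of fibroblasts and mural cells resembled the endothelial genes in their order. Of 19 tested, 14 were highest in tnsIMs and 13 were so against each population, with a median log2 difference of 1.87, and 9 were highest with at least 10 counts per library. Col1a2, a chain of type I collagen, was at 15.2, 20.3 and 31.6 CPM in tnsIMs, 3.86, 6.68 and 10.1 CPM in moMs and 2.87, 4.85 and 6.02 CPM in matIMs (1.93 ± 0.14 (SE), adjusted p = 1.32e-09). Inmt, a methyltransferase of lung fibroblasts, was 3.96-fold above moMs and 4.04-fold above matIMs, and Mfap4, a microfibril gene, 3.14-fold and 4.57-fold. Npnt, which encodes the matrix protein nephronectin, had the largest difference of the list (2.53 ± 0.18 (SE), adjusted p = 9.09e-10). In each of these 4 genes the tnsIM libraries lay above all 12 others. Pi16, a marker of adventitial fibroblasts, had the opposite gradient, with means of 42.7 CPM in moMs, 6.08 in tnsIMs and 3.32 in matIMs.

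**Figure D3:**
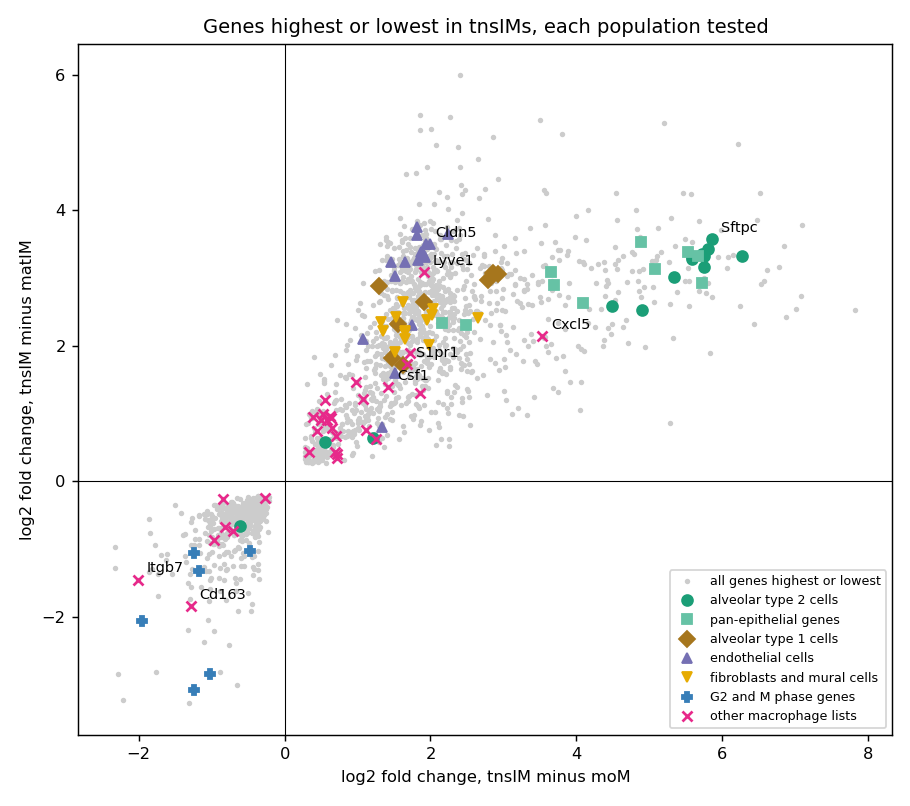
Log2 fold change of tnsIMs over moMs (x) and over matIMs (y) for the genes highest or lowest in tnsIMs against each population, each point 1 gene, with list members in colour. Most AT2 and pan-epithelial genes lie far to the right, most endothelial genes lie higher over matIMs than over moMs, and most macrophage-list genes lie closer to the origin. Fold changes of genes with few counts in moMs depend on the prior count of the fit.

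Few blood cell markers were highest against each population. Of 15 neutrophil genes, 9 were higher in the contrast and 5 were highest in both genotypes (33.3%, against 13.2% of all tested genes). None was highest against each population. The median log2 difference of the list was 1.18, with median levels of 19.5% of that in tnsIMs for moMs and 85.0% for matIMs. The summed list, however, was highest in moMs, at 1101, 1354 and 1598 CPM in tnsIMs, 1798, 1958 and 2170 CPM in moMs and 847, 983 and 1032 CPM in matIMs. S100a9, an alarmin abundant in neutrophils, was at 63.4, 97.7 and 109 CPM in tnsIMs, 9.72, 14.6 and 20.8 CPM in moMs and 46.7, 66.7 and 111 CPM in matIMs, and tnsIMs and matIMs overlapped. The number of neutrophil genes that were highest moved to 8 without WT tnsIM replicate 2, Ezr-KOm tnsIM replicate 1, WT matIM replicate 2 or Ezr-KOm matIM replicate 3, and to 3 without Ezr-KOm tnsIM replicate 3. Of 18 B and plasma cell genes, 12 were higher in the contrast (1 with at least 10 counts per library), but 1 was highest (5.56%). Summed over the list they were at 285, 428 and 477 CPM in tnsIMs, 91.5, 118 and 179 CPM in moMs and 1227, 1690 and 2365 CPM in matIMs. Igkc, the kappa light chain, was at 103, 137 and 277 CPM in tnsIMs, 1.202, 2.02 and 5.16 CPM in moMs and 402, 955 and 1336 CPM in matIMs. The exception was Fcer2a, the low-affinity IgE receptor CD23, at 14.6, 22.2 and 39.7 CPM in tnsIMs, 0.2901, 0.591 and 1.102 CPM in moMs and 8.63, 11.8 and 21.1 CPM in matIMs, which passed against each population (adjusted p = 2.68e-10 and 0.0104). Its tnsIM and matIM libraries overlapped.

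Of all tested genes, 15.4% were higher, 11.4% lower, 13.2% highest and 8.48% lowest in tnsIMs. For T and NK cell genes the shares highest and lowest were 8.33% and 4.17%. Of 24 T and NK cell genes, 2 were higher and 3 were lower, and none was highest or lowest against each population. Without WT tnsIM replicate 2, WT tnsIM replicate 3 or Ezr-KOm tnsIM replicate 2, 1 was higher, and without WT moM replicate 2, 5 were lower. Dendritic cell genes leaned towards matIMs, and 22.2% of them were lowest in tnsIMs. Of 18 tested, 1 was higher (0 without WT moM replicate 2, WT moM replicate 3 or Ezr-KOm moM replicate 2, and 2 without Ezr-KOm moM replicate 3), 7 were lower and 4 were lowest, 3 of them against each population, and 2 were lowest without Ezr-KOm moM replicate 3. Summed over the list, they were at 7202, 9420 and 10383 CPM in matIMs against 606, 869 and 1061 CPM in tnsIMs and 238, 276 and 327 CPM in moMs. Among basophil, mast cell and eosinophil genes 5 were tested, and Gata2 and Hdc were highest (40.0%). Hdc, the histamine-forming decarboxylase, was at 107, 141 and 183 CPM in tnsIMs, 45.001, 67.002 and 83.3 CPM in moMs and 50.6, 57.5 and 66.4 CPM in matIMs (1.20 ± 0.13 (SE), adjusted p = 3.99e-07). Gata2, a transcription factor of basophils and mast cells and also of endothelium, was 3.23-fold above moMs and 8.74-fold above matIMs. The mast cell protease gene Cma1 and the IgE receptor gene Fcer1a did not exceed a mean of 0.511 CPM in tnsIMs. Of 9 platelet and erythroid genes, 2 were highest (22.2%), but 1 without WT tnsIM replicate 2. The number was 4 without WT moM replicate 2, Ezr-KOm moM replicate 2 or WT tnsIM replicate 1. It was also 4 without Ezr-KOm tnsIM replicate 1 or 3, WT matIM replicate 1 or Ezr-KOm matIM replicate 3. The hemoglobin genes Hba-a1 and Hbb-bs did not pass (adjusted p = 0.903 and 0.663). Of 3 mesothelial genes tested, 1 was highest (33.3%), and 0 without WT tnsIM replicate 1. Their summed level was higher in moMs, at 5.32, 7.75 and 12.5 CPM, than in tnsIMs, at 1.45, 2.103 and 3.17 CPM. Of 15 alveolar macrophage genes, 3 were highest and 1 was lowest, whereas Marco and Fabp4 had their highest means in matIMs. Lpl, lipoprotein lipase, was at 685, 891 and 1224 CPM in tnsIMs, 444, 657 and 835 CPM in moMs and 536, 602 and 775 CPM in matIMs and passed against each population by 1.43-fold and 1.46-fold.

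Among macrophage lists the differences were smaller. Of 347 tested genes on these 15 lists, 52 were highest in tnsIMs (24 against each population) and 32 were lowest (13 against each population). These were 14.99% and 9.22% of the 347, near the 13.2% and 8.48% of all tested genes. The median log2 difference over the 347 genes was 0.06. General macrophage and monocyte identity genes had 3 highest and 1 lowest of 20, but 1 highest without Ezr-KOm moM replicate 3 or WT tnsIM replicate 1, and 0 lowest without WT matIM replicate 2. Aif1, a calcium-binding protein of macrophages, was at 279.7, 362 and 457 CPM in tnsIMs, 222, 243 and 259.6 CPM in moMs and 165, 195 and 226 CPM in matIMs (0.74 ± 0.10 (SE), adjusted p = 8.90e-06). Classical monocyte genes had none highest and 3 lowest of 20 (15.0%, against 8.48% of all tested genes). MHC class II genes had 6 of 15 higher and none highest. H2-Eb1, the beta chain of the class II molecule I-E, was at 2575, 3369 and 3597 CPM in tnsIMs, 167, 243 and 295 CPM in moMs and 4743, 5914 and 6954 CPM in matIMs. Summed over the classical monocyte list, the libraries ran from 24398 to 27792 CPM in moMs, from 9129 to 13166 CPM in tnsIMs and from 4223 to 6086 CPM in matIMs, so that tnsIMs lay between the others.

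Resident interstitial macrophage genes had 6 highest and 1 lowest of 20 (30.0% and 5.0%, against 13.2% and 8.48% of all tested genes). Without Ezr-KOm tnsIM replicate 2, 2 were lowest. Lyve1 (chr7:110449814-110462446), a hyaluronan receptor of perivascular macrophages and also of lymphatic endothelium, was at 32.4, 53.5 and 62.2 CPM in tnsIMs, 8.15, 12.9 and 20.2 CPM in moMs and 4.14, 5.47 and 8.05 CPM in matIMs. All tnsIM libraries lay above the other 12, 3.76-fold over moMs and 8.53-fold over matIMs (2.501 ± 0.16 (SE), adjusted p = 2.72e-10). Gas6, a ligand of the receptors that recognise dying cells, was at 10.7, 12.02 and 16.5 CPM in tnsIMs, 1.81, 3.31 and 6.25 CPM in moMs and 2.84, 5.67 and 7.42 CPM in matIMs (1.58 ± 0.19 (SE), adjusted p = 1.16e-06). Cd163, the scavenger receptor for haptoglobin and hemoglobin, moved the other way, at 0.9404, 2.44 and 4.59 CPM in tnsIMs, 3.43, 5.06 and 12.1 CPM in moMs and 3.68, 8.32 and 14.4 CPM in matIMs (-1.57 ± 0.26 (SE), adjusted p = 1.03e-04). C1qb, a chain of the complement component C1q, was 2.53-fold above moMs but 1.13-fold above matIMs, and did not pass against matIMs (adjusted p = 0.397).

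Cytokine and growth factor genes held the most highest members of the macrophage lists, 11 of 29 (37.9%, against 13.2% of all tested genes). By share the chemokine list and the lysosome and lipid list were close, at 35.0% each. Against each population 7 cytokine genes were highest (24.1%, against 8.36% of all tested genes). The median log2 difference was 0.60, although the summed list overlapped between tnsIMs (16543 to 22458 CPM) and moMs (14252 to 22179 CPM). Csf1 (chr3:107648364-107667785), the growth factor on which macrophages depend, was at 109.9, 155 and 217 CPM in tnsIMs, 45.7, 58.05 and 82.5 CPM in moMs and 54.9, 61.8 and 74.7 CPM in matIMs. The tnsIM libraries did not overlap the others (2.67-fold over moMs, 2.62-fold over matIMs, 1.40 ± 0.13 (SE), adjusted p = 3.18e-08). Csf2, which encodes GM-CSF, was at 4.39, 6.04 and 6.92 CPM in tnsIMs, 0.573, 1.77 and 2.83 CPM in moMs and 1.004, 1.38 and 2.48 CPM in matIMs (1.80 ± 0.25 (SE), adjusted p = 1.03e-05). Pdgfa, a growth factor for fibroblasts, was 1.97-fold above moMs and 2.77-fold above matIMs. Il23a, the p19 subunit of IL-23, was at 181, 240.0 and 323 CPM in tnsIMs, 84.1, 123 and 140.2 CPM in moMs and 71.9, 115 and 129 CPM in matIMs (1.15 ± 0.14 (SE), adjusted p = 1.36e-06). Tnf, Inhba and Il1rn were also highest against each population, by 1.57-fold, 1.44-fold and 1.31-fold over moMs. Il15, a growth factor for lymphocytes, was lowest, with means of 10.2 CPM in tnsIMs, 17.8 in moMs and 16.1 in matIMs (adjusted p = 0.00296).

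Of 20 chemokine genes, 11 were higher, 7 were highest (35.0%, against 13.2% of all tested genes) and none was lower. The summed list overlapped between tnsIMs (10692 to 16828 CPM) and moMs (10525 to 16383 CPM). Cxcl5, a neutrophil attractant, was at 5.21, 10.5 and 13.05 CPM in tnsIMs, 0.485, 0.779 and 1.22 CPM in moMs and 1.13, 2.33 and 3.46 CPM in matIMs, with no overlap (11.6-fold over moMs, 4.43-fold over matIMs, 2.84 ± 0.22 (SE), adjusted p = 2.63e-09). Among genes highest against each population, moMs were lowest in 12 of 13 AT2 genes, 9 of 10 pan-epithelial genes and 9 of 24 macrophage-list genes, Cxcl5 included. Ccl3, a chemokine of activated macrophages, was at 983, 1269 and 1348 CPM in tnsIMs, 588, 742 and 1068 CPM in moMs and 423, 646 and 764 CPM in matIMs (0.79 ± 0.13 (SE), adjusted p = 5.31e-05). Cxcl14 was also highest against each population, whereas Ccl12 and Ccl24 passed against matIMs and did not pass against moMs (adjusted p against moMs = 0.0896 and 0.411).

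**Figure D4:**
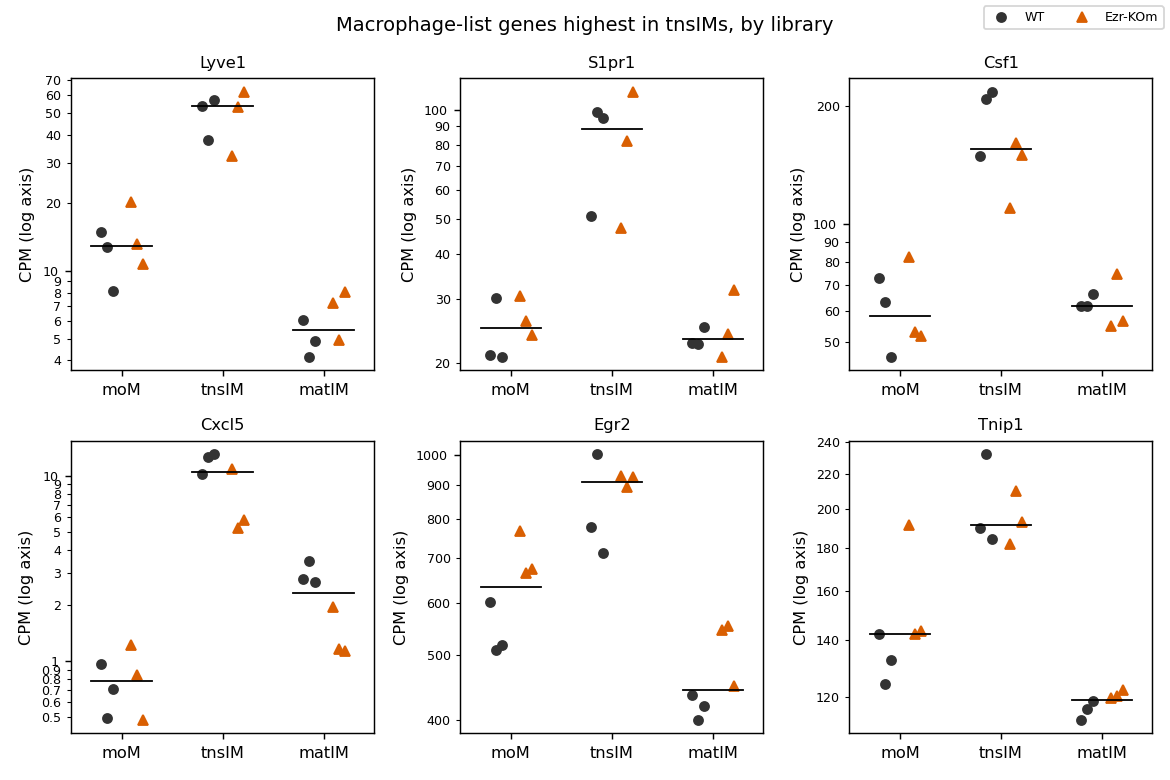
CPM (log axis) of 6 macrophage-list genes highest in tnsIMs in each library, by population, with circles for WT, triangles for Ezr-KOm and a line at the median of the 6 libraries. Lyve1, S1pr1, Csf1 and Cxcl5 do not overlap between tnsIMs and the other populations, while in Egr2 and Tnip1 at least 1 moM library reaches the range of tnsIMs.

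Of 28 adhesion and actin cytoskeleton genes, 5 were highest (17.9%) and 3 were lowest (10.7%), near the 13.2% and 8.48% of all tested genes, and 8 were highest without WT tnsIM replicate 2. S1pr1 (chr3:115504082-115508721), the receptor for sphingosine 1-phosphate, which is expressed in leukocytes and strongly in endothelium, was at 47.2, 88.2 and 112 CPM in tnsIMs, 20.8, 24.9 and 30.6 CPM in moMs and 20.8, 23.3 and 31.9 CPM in matIMs. The tnsIM libraries lay above all others, 3.19-fold over moMs and 3.31-fold over matIMs (1.70 ± 0.15 (SE), adjusted p = 2.60e-08). Myo1e, an unconventional myosin of the cell cortex, was 1.65-fold above moMs and 1.28-fold above matIMs, again without overlap. Apoptosis and p53 genes had 5 highest and 3 lowest of 20, again against 13.2% and 8.48% of all tested genes, and had 8 highest with upper-quartile normalization and 1 lowest without Ezr-KOm moM replicate 1. Among them were Bax, which permeabilizes mitochondria in apoptosis, at 111, 182 and 252 CPM in tnsIMs, 96.5, 109 and 128 CPM in moMs and 85.7, 114 and 142 CPM in matIMs and Casp1, the inflammasome caspase, at 37.7, 68.4 and 80.9 CPM in tnsIMs, 89.4, 109.7 and 143 CPM in moMs and 68.1, 76.9 and 85.9 CPM in matIMs. Bax passed against each population and its libraries overlapped both, and Casp1 passed against moMs and not against matIMs (adjusted p = 0.182).

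The remaining macrophage lists had few members highest or lowest, apart from lysosome and lipid genes. Of all tested genes, 13.2% were highest. The share was 8.0% for NF-kappaB genes and for immediate early genes, 7.14% for interferon-stimulated genes, 11.8% for glycolysis genes and 35.0% for lysosome genes. Of 25 NF-kappaB and LPS response genes, 4 were higher, 6 were lower and 2 were highest, or 4 highest without WT tnsIM replicate 2. Among them was Tnip1, an inhibitor of that pathway, at 182, 191 and 232 CPM in tnsIMs, 124, 142 and 192 CPM in moMs and 113, 119 and 122 CPM in matIMs (0.60 ± 0.08 (SE), adjusted p = 5.94e-06). Birc3, an inhibitor of apoptosis that NF-kappaB induces, was lowest, at 201, 209.8 and 278 CPM in tnsIMs, 353, 404 and 436 CPM in moMs and 239.5, 266 and 289.8 CPM in matIMs (-0.55 ± 0.08 (SE), adjusted p = 1.49e-05). Egr2, a zinc finger factor induced early after stimulation, was at 711, 909 and 1000.5 CPM in tnsIMs, 509, 632 and 769 CPM in moMs and 401, 443 and 553 CPM in matIMs (0.70 ± 0.08 (SE), adjusted p = 6.86e-07), and 2 of 25 immediate early genes were highest, or 1 without WT tnsIM replicate 2. Of 28 interferon-stimulated genes, 2 were higher, none was lower and none was highest against each population. These counts depended on the fit, with 1 higher without WT tnsIM replicate 3, Ezr-KOm tnsIM replicate 1 or Ezr-KOm tnsIM replicate 3, 4 higher and 2 lower in a fit blocked by replicate number, and 9 higher and 2 lower in a fit blocked by number within genotype. Of 17 glycolysis genes, 2 were higher and 2 were lower, but the second number was 1 without any 1 of 14 libraries, namely every tnsIM library and 4 each of moMs (WT 2 and 3, Ezr-KOm 1 and 3) and matIMs (WT 2 and 3, Ezr-KOm 1 and 3), and the first was 0 without Ezr-KOm tnsIM replicate 2. Of 20 lysosome and lipid genes, 8 were higher and 7 were highest, but without Ezr-KOm tnsIM replicate 2 these numbers were 4 and 2. The summed lysosome list ran from 13612 to 16422 CPM in tnsIMs, below or within the moM range of 15214 to 17266 CPM.

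The folds of macrophage-list genes were set beside those of the structural cell lists, a comparison drawn up after the values were seen. For each of 5 lists, the ranges of the fold over moMs and over matIMs were taken from its members that were highest against each population. Of the 52 macrophage-list genes that were highest, 17 fell within both ranges of the AT2 list, 7 within those of the endothelial list, 2 within those of the AT1 list, 0 within those of the pan-epithelial list and 0 within those of the fibroblast list. Both the ranges and the genes set beside them were chosen by these same folds. The share of all highest genes inside the ranges was not counted, so the counts have no baseline. They also depend on the width of the ranges. AT2 folds ran from 1.47 to 77.6 over moMs and from 1.496 to 11.9 over matIMs, so that small rises fall inside them, whereas pan-epithelial folds began at 4.45 and 4.97. The 7 in the endothelial ranges were Lyve1, S1pr1, Csf1, Csf2, Il23a, Gas6 and Iigp1. The summed endothelial and AT2 lists did not overlap between tnsIMs and the other populations in any library, and whether transcripts of those cells contributed to the level of macrophage-list genes was not tested.

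The study names Csf1, S1pr1, Irf1, Trp53, Cxcl2 and Il1a in connection with tnsIMs and chose them on these samples. Their values are therefore not independent evidence. The study describes Csf1, S1pr1, Irf1 and Trp53 as expressed by WT tnsIMs, and Csf1, Irf1 and Trp53 as lower in Ezr-KOm tnsIMs than in WT. The contrast here pools both genotypes and does not test either statement. Csf1 and S1pr1 were highest against each population, as given above. Irf1, an interferon regulatory factor, was at 249, 456 and 636 CPM in tnsIMs, 387, 638 and 960.1 CPM in moMs and 324, 477 and 656 CPM in matIMs and did not pass (log2 difference -0.34 ± 0.19 (SE), adjusted p = 0.187). It was lower in tnsIMs past the threshold in a fit blocked by replicate number (adjusted p = 0.00212) and in a fit blocked by number within genotype (adjusted p = 9.08e-04). Trp53, the p53 gene, was at 74.01, 81.6 and 92.1 CPM in tnsIMs, 63.2, 72.6 and 83.2 CPM in moMs and 74.4, 83.5 and 91.1 CPM in matIMs and did not pass (0.07 ± 0.07 (SE), adjusted p = 0.481). Cxcl2, a neutrophil attractant, was at 3066, 4334 and 5965 CPM in tnsIMs, 2949, 3601 and 5623 CPM in moMs and 1405, 1839.5 and 3013 CPM in matIMs. Il1a, an alarmin cytokine, was at 1951, 2248 and 3212 CPM in tnsIMs, 1214, 1766 and 2438 CPM in moMs and 767, 1118 and 1712 CPM in matIMs. Both were highest in both genotypes in the contrast (adjusted p = 0.0149 and 0.00296), and passed against matIMs, but not against moMs, where the adjusted p was 0.734 for Cxcl2 and 0.095 for Il1a.

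Of all lists, that of the G2 and M phases held the most genes lowest in tnsIMs. Cells that divide transcribe DNA replication genes in S phase, and genes of the spindle and the chromosomes in the G2 and M phases. Of 30 G2 and M phase genes, none was higher, 17 were lower, 13 were lowest in both genotypes and 6 were lowest against each population, against 8.48% and 2.87% of all genes. The median log2 difference of the list was -0.86. The summed list was at 88.2, 97.9 and 117 CPM in tnsIMs, 99.6, 115 and 129.6 CPM in moMs and 164, 177 and 191 CPM in matIMs, so that tnsIMs overlapped moMs. Aurkb (chr11:68936473-68942490), the kinase that corrects spindle attachments, was at 1.75, 2.29 and 2.43 CPM in tnsIMs, 3.59, 4.96 and 6.77 CPM in moMs and 3.69, 5.67 and 7.73 CPM in matIMs. All tnsIM libraries lay below the other 12, at 0.444 of the moM level and 0.399 of the matIM level (-1.25 ± 0.17 (SE), adjusted p = 6.60e-06). Kif23, a kinesin of cell division, was at 1.27, 4.15 and 5.29 CPM in tnsIMs, 5.77, 8.87 and 11.96 CPM in moMs and 5.63, 8.05 and 9.99 CPM in matIMs (-1.15 ± 0.24 (SE), adjusted p = 0.00112), likewise without overlap. Cenpa, the histone of centromeres, was at 6.62, 9.17 and 10.1 CPM in tnsIMs, 9.101, 12.1 and 16.4 CPM in moMs and 13.2, 17.5 and 26.6 CPM in matIMs (-0.75 ± 0.15 (SE), adjusted p = 5.67e-04), with overlap between tnsIMs and moMs.

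Top2a, the topoisomerase of dividing cells, was at 2.25, 3.59 and 4.12 CPM in tnsIMs, 2.56, 3.48 and 4.81 CPM in moMs and 7.97, 11.6 and 14.01 CPM in matIMs. It was lower in the contrast (-0.86 ± 0.15 (SE), adjusted p = 1.33e-04), yet differed from matIMs and not detectably from moMs (adjusted p = 5.66e-08 and 0.994). Kif11, Anln and Ttk were lowest against each population at means of 0.4403, 0.5603 and 0.107 CPM in tnsIMs, levels at which few counts stand behind each library. When each library had to hold 10 counts or more, 7 genes of the list were lower and 5 were lowest. Of 30 S phase genes, none was higher, 10 were lower and 4 were lowest (13.3%). Of all tested genes, 11.4% were lower and 8.48% were lowest. The number of lowest S phase genes was 2 without WT moM replicate 3, without Ezr-KOm tnsIM replicate 3 or with upper-quartile normalization. The summed list was not lowest, at 508, 546 and 623 CPM in tnsIMs, 465, 514 and 529 CPM in moMs and 783, 873 and 1008 CPM in matIMs. The number of lower S phase genes fell to 4 with upper-quartile normalization, and to between 4 and 6 without any 1 of 7 libraries, WT moM replicate 3, Ezr-KOm moM replicate 1, WT tnsIM replicate 1, Ezr-KOm tnsIM replicate 3, WT matIM replicates 1 and 3, or Ezr-KOm matIM replicate 1. Mcm4, a subunit of the replicative helicase, was at 33.5, 39.6 and 45.1 CPM in tnsIMs, 35.8, 45.6 and 56.9 CPM in moMs and 61.5, 66.4 and 78.8 CPM in matIMs (-0.53 ± 0.10 (SE), adjusted p = 2.75e-04).

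Promoter windows of 3 genes of this list are shown because NF-Y, which binds CCAAT, is known to act at many cell cycle promoters. As above they are the 250 bases before the RefSeq start (GRCm38.p6), for Cenpa (chr5:30666636-30666885, plus strand), Kif23 (chr9:61946800-61947049, minus strand) and Top2a (chr11:99024190-99024439, minus strand), with CCAAT or its reverse complement in capitals.
Cenpa: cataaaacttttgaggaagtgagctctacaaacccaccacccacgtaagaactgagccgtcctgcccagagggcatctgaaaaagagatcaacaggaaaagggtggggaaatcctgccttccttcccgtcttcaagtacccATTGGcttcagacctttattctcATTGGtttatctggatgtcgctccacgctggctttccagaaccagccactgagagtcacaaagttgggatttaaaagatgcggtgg
Kif23: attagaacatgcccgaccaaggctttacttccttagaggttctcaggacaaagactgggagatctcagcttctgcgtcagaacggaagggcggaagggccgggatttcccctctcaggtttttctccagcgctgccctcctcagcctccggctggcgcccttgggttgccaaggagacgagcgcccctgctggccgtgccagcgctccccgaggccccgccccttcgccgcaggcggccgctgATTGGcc
Top2a: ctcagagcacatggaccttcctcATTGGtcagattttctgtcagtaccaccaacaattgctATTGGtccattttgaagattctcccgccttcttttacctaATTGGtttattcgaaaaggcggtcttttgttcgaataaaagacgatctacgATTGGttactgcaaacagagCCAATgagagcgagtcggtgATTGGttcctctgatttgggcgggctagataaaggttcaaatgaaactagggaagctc
Top2a had 6 matches, Cenpa had 2 and Kif23 had 1. CCAAT stood in 21 of 27 G2 and M phase windows (77.8%) and in 16 of 23 S phase windows (69.6%), against 36.2% of the windows of tested genes. It was also frequent in other lists, in 70.0% of 10 MHC class II windows, 62.5% of 16 lysosome windows and 56.2% of 16 classical monocyte windows, so it was not particular to the cell cycle lists. The other cell cycle motif searched, TTTGAA, the core of the cell cycle homology region, stood in 7 of 27 G2 and M phase windows (25.9%) and in 3 of 23 S phase windows (13.04%), against 11.3% of those of tested genes, but also in 4 of 12 AT2 windows (33.3%) and in 6 of 18 apoptosis and p53 windows (33.3%). Among the 453 genes lowest against each population, 35.3% of 348 windows held CCAAT and 9.77% held TTTGAA. Both shares were close to those of all tested genes. A match describes letters and not binding of a factor.

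The 12 genes with the largest fall among those without overlap, at a mean of at least 10 CPM in both other populations, had log2 differences between -2.30 and -1.10. Itgb7 (chr15:102124430-102140379), the integrin beta 7 chain that pairs with alpha 4 for homing to mucosa, was at 82.2, 109.5 and 137 CPM in tnsIMs, 372, 433 and 543 CPM in moMs and 242, 313 and 338 CPM in matIMs. The tnsIM libraries were at 0.247 of the moM level and 0.367 of the matIM level (-1.73 ± 0.12 (SE), adjusted p = 1.06e-09). Itga4, the alpha 4 chain itself, was also lowest without overlap, at 39.7, 76.8 and 104 CPM in tnsIMs, 115, 149 and 174 CPM in moMs and 114, 139 and 160.3 CPM in matIMs (-0.92 ± 0.16 (SE), adjusted p = 1.23e-04). Flt3, a receptor kinase of dendritic cells and their progenitors, was at 7.22, 13.5 and 24.2 CPM in tnsIMs, 27.7, 37.8 and 41.8 CPM in moMs and 92.05, 144 and 197 CPM in matIMs (-2.30 ± 0.21 (SE), adjusted p = 4.27e-08), with matIMs highest.

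Racgap1, a GTPase-activating protein of cell division, was at 4.197, 5.95 and 8.58 CPM in tnsIMs, 14.7, 20.97 and 29.6 CPM in moMs and 11.7, 14.1 and 20.4 CPM in matIMs (-1.60 ± 0.15 (SE), adjusted p = 7.05e-08). Arhgap15, a Rac GTPase-activating protein, was at 22.9, 28.7 and 41.8 CPM in tnsIMs, 87.8, 112 and 135 CPM in moMs and 44.2, 49.3 and 59.6 CPM in matIMs (-1.31 ± 0.12 (SE), adjusted p = 6.02e-08). Iqgap2, a scaffold protein, was at 17.5, 20.1 and 29.97 CPM in tnsIMs, 60.6, 74.1 and 92.6 CPM in moMs and 31.2, 39.3 and 55.5 CPM in matIMs, and Arhgef6, a Rac exchange factor, at 40.9, 49.2 and 72.7 CPM in tnsIMs, 92.4, 122 and 141 CPM in moMs and 92.9, 104 and 149 CPM in matIMs. In each of the 4 the highest tnsIM library lay below the lowest library of the others. The rest were Stxbp6, Mfsd6, Serinc5, Haao, St8sia4 and Foxred2, with log2 differences between -1.55 and -1.10. Actg1, cytoplasmic gamma actin, was lowest as well, with means of 538 CPM in tnsIMs, 876 in moMs and 895 in matIMs (adjusted p = 0.00141).

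**Figure D5:**
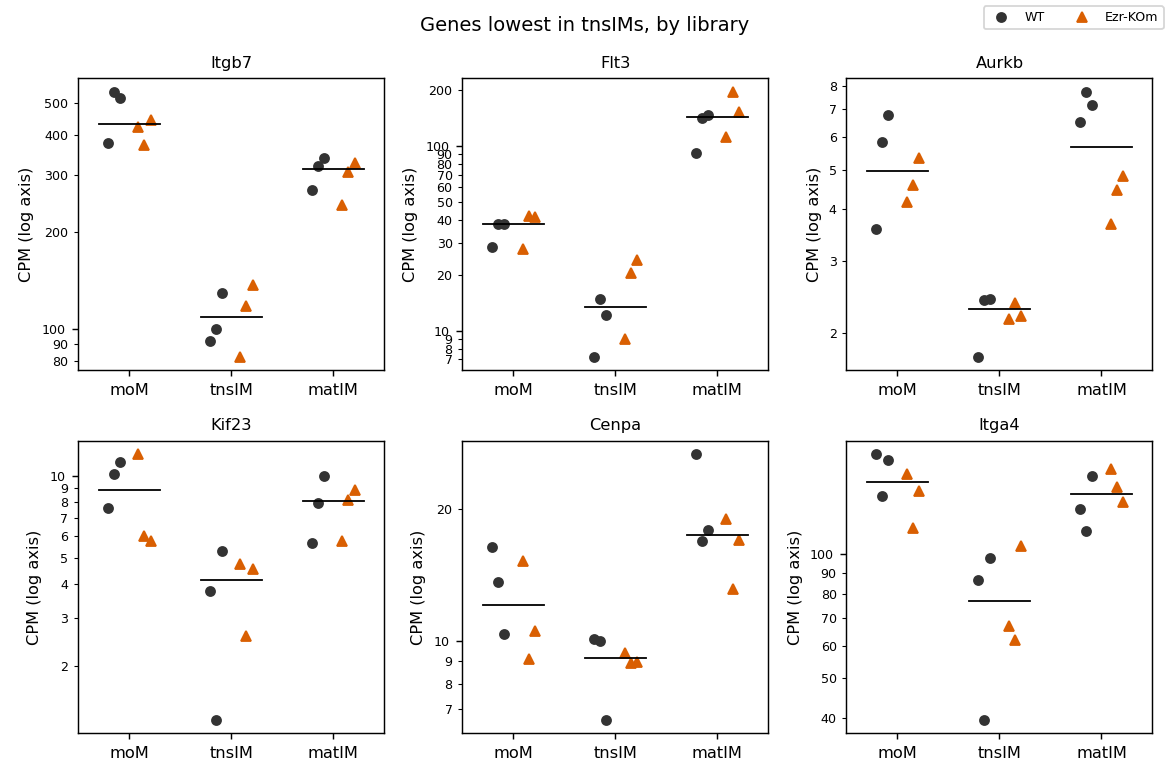
CPM (log axis) of 6 genes lowest in tnsIMs in each library, by population, with circles for WT, triangles for Ezr-KOm and a line at the median of the 6 libraries. In Itgb7, Flt3, Aurkb, Kif23 and Itga4 every tnsIM library lies below all 12 others, and in Cenpa some tnsIM and moM libraries overlap.

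Falls were shallower than rises, among genes kept by a filter that admits genes rare outside tnsIMs. Over the 453 genes lowest against each population, tnsIMs were at a median of 72.1% of the level in the nearer population, and 41 genes were more than 2-fold below both. Of the 453, 5 stood on a list of another lung cell, 13 on a macrophage list and 435 on none. Ptprc, which encodes CD45, the pan-leukocyte marker of the gates, was lower in tnsIMs in the contrast, at 796, 859 and 1596 CPM in tnsIMs, 1380.4, 1654 and 2064 CPM in moMs and 934, 1149 and 1204 CPM in matIMs (-0.46 ± 0.13 (SE), adjusted p = 0.00927). It passed against moMs (adjusted p = 2.85e-04) and not against matIMs (adjusted p = 0.458). Itgam, which encodes CD11b, did not pass in the contrast (adjusted p = 0.296).

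The tnsIM differences were measured in both genotypes. A test of the interaction, the tnsIM contrast in Ezr-KOm minus that in WT, called 0 of 15811 genes at an adjusted p under 0.05 by edgeR. The smallest adjusted p was 0.99992, and 196 genes had an unadjusted p under 0.05 (1.24%). DESeq2 also called 0, with 230 genes at an unadjusted p under 0.05. Both numbers are below the 791 genes that evenly spread p-values would give. The 0 calls therefore do not show that the tnsIM differences were alike in the 2 genotypes. Within WT alone 1593 genes were higher and 719 lower, and within Ezr-KOm alone 1274 were higher and 458 lower. Of the 1322 genes highest against each population, 1209 were called in WT, 1069 in Ezr-KOm and 1028 in both, with median log2 differences of 2.34 and 2.01. Of the 453 lowest, 325, 243 and 217 were called, with medians of -0.65 and -0.58. Sftpc had a log2 difference of 4.84 in WT and 4.60 in Ezr-KOm, and Csf1 had 1.63 and 1.17. The interaction for Csf1 was -0.46 ± 0.26 (SE), and that for Aurkb was 0.50 ± 0.30 (SE), neither past the threshold.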

How the data were processed

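Raw counts per gene were used as deposited. The authors checked reads with FastQC, aligned them with STAR 2.7.9a to GRCm39 with the Gencode M29 annotation and deposited whole-number counts from STAR's GeneCounts mode, without normalization. The strand column is not given in the sources used here, so overlapping and antisense genes cannot be told apart. Libraries were made with SMART-Seq v4 from 3 biological replicates per group, and each column was matched to its sample by name.

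Counts were fitted in edgeR 4.0.16 (R 4.3.3) after the study's methods, with TMM and the quasi-likelihood test. Genes were kept by filterByExpr (smallest count 10), and population and genotype were additive terms in 1 fit of 18 libraries. The contrast was tnsIM minus the mean of moM and matIM. tnsIMs were also tested against each population in the same fit, and the interaction in a model of 6 groups. P-values were adjusted by the Benjamini-Hochberg method over all tested genes. They measure the spread between these libraries, taken as independent, although the study gives 3 mice per genotype. Whether same-numbered libraries came from 1 mouse is not given in the sources used here. Groups at 3 counts or fewer in every library were treated as at the floor. No replicates were identical, and all pairs differed by more than sampling noise. Scripts were checked on simulated counts. Promoter windows (RefSeq, GRCm38.p6) were searched for 3 motifs (TNAAGTG for NKX2 factors, CCAAT for NF-Y, and TTTGAA for the cell cycle homology region), and which of the cell cycle motifs to mark was chosen after their shares were seen.

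The genes described and the lists were chosen with earlier results of these data known. Genes were named by rule, as the 12 largest rises and falls without overlap at 10 CPM or more, up to 4 members of each list with the smallest p at 5 CPM or more, the gate genes, Ezr and 6 genes the study names. Other members of the lists appear with their means where a count is explained, and were chosen after their values were seen. Depth of 16512783 to 48460995 counts per library limits genes under about 1 CPM. Alternatives were DESeq2 1.42.0, other normalizations and filters, robust fitting, fold thresholds, a replicate block and leaving out each library.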

Additional observations from a re-analysis of the deposited data

How the results depend on the processing

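Counts of genes that were lower or lowest depended most on the processing. With the absolute log2 fold change also required to be above 0.75, genes lower, lowest and lowest against each population were 421, 301 and 93 at the adjusted threshold, and 568, 386 and 122 at an unadjusted p. With at least 10 counts in every library, which tests fewer genes, 1584 were higher, 1311 highest, 668 highest against each population, 1363 called in WT and 970 in Ezr-KOm. Over leaving out each library in turn, genes higher ranged from 2087 to 2841, lower from 1285 to 1913, highest from 1795 to 2456, lowest from 961 to 1460, highest against each population from 1224 to 1489, lowest against each from 321 to 535, called in WT from 1790 to 2463, called in Ezr-KOm from 1213 to 1896, and interaction calls stayed at 0. Same-numbered libraries of 2 populations within a genotype had correlations of their deviations between 0.0905 and 0.397, with 16 of 18 over 0.1, against 0 of 36 for different numbers, and same-numbered genotype pairs within a population between 0.102 and 0.316, with 9 of 9 over 0.1. All 18 libraries correlated best with their own number. The block was nonetheless kept out of the reported fit, because the sources do not tie the numbers to a mouse or batch and the criterion set was a correlation over 0.1 in every population pair. That decision was close. With a replicate block by number, 2883 genes were higher, 2571 lower and 752 lowest against each population, and with a block by number within genotype 2974, 2681 and 796, with 2669 called in Ezr-KOm. Under either block 9 apoptosis genes were highest, 5 T and NK cell genes were lower and 4 glycolysis genes were higher. Genes that were never called changed sign when 1 library was left out. Ezr ranged from -0.0553 to 0.128, and was negative without WT tnsIM replicate 1, Ezr-KOm tnsIM replicate 1 or Ezr-KOm matIM replicate 2. Hba-a1 ranged from -0.200 to 0.317, and was negative without WT tnsIM replicate 3, Ezr-KOm tnsIM replicate 1 or Ezr-KOm matIM replicate 2. The cause was not tested. Of 132 named genes, 122 were called, and 114 kept their direction and call in all of up to 28 alternatives. Calls were lost at least once for Rfc2, Pfkp, Iigp1, Fabp4, Ly6c2, Pfkl, Slc2a1 and Cxcl2, and 0 called genes reversed. Calls were gained for 3 genes that did not pass, Irf1 and Oas2 under both blocks, Oas2 also without Ezr-KOm tnsIM replicate 3, and Egr3 in 10 alternatives.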
